A study of Mus musculus with 34 samples.

Results

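Interferon-stimulated genes are genes whose transcription rises when a cell senses interferon. The set described here holds 34 of them, taken from a fixed list of symbols in 6 roles among the 51826 genes counted in these mouse RNA-seq libraries, and all 34 were found and passed the filter on low counts that left 25705 genes for testing. They comprise 6 signalling components and regulators (Stat2, Irf9, Irf7, Irf1, Usp18 and Isg15), 2 nucleic acid sensors (Ifih1 and Zbp1), 4 IFIT genes (Ifit1, Ifit2, Ifit3 and Ifit3b), 5 oligoadenylate synthetase genes (Oas1a, Oas2, Oas3, Oasl1 and Oasl2), 11 other antiviral effectors (Mx1, Mx2, Rsad2, Cmpk2, Bst2, Xaf1, Rtp4, Ifi44, Ifi35, Parp14 and Trim30a) and 6 GTPases (Gbp2, Gbp3, Gbp7, Igtp, Irgm1 and Iigp1). The study profiled stromal cells sorted from several mouse tissues to ask how transcription depends on the tissue a cell sits in. Sorted cells were CD45-, CD31-, Epcam- and PDPN+; those that were also PDGFRA+ are the fibroblasts, and those that were PDGFRA- are the mesothelial cells, the lining cells of the body cavities and of the organs in them. Mesothelial cells and fibroblasts were both taken from omentum, mesentery and epididymal fat, with 3 libraries in each of the 6 groups. Fibroblasts alone were taken from inguinal fat, brown adipose tissue, bone and lymph node (labelled sLN), with 3 libraries each, and from pancreas and spleen, with 2 libraries each. Inguinal fat and brown adipose tissue are classed as subcutaneous fat in the labels, and the other 3 depots as visceral fat. All 34 libraries carry the label GFPneg, and no treatment is named, so that the levels below are those of cells with no stated interferon exposure. Strain, age, sex and genotype are not stated in the sources used here. No label ties the replicates to different animals, so p-values measure the spread between these libraries, which may be technical.

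Type I interferons act through the receptor IFNAR1/IFNAR2 and the kinases JAK1 and TYK2. A complex that holds STAT2 and IRF9 then binds the interferon-stimulated response element (ISRE). Interferon gamma acts through IFNGR1/IFNGR2, JAK1 and JAK2, and its early targets carry the gamma-activated site (GAS). The products of the induced genes detect foreign nucleic acid (Ifih1, Zbp1), bind viral RNA (IFIT proteins), activate RNA decay (OAS proteins) and block viral replication or release (Mx proteins, Rsad2, Bst2). GBP proteins and the immunity-related GTPases Igtp, Irgm1 and Iigp1 attack the vacuoles of intracellular pathogens or regulate that attack. Usp18 removes ISG15 from proteins and dampens signalling at IFNAR2. Many of these genes keep a low basal level without infection.

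The motifs to which these factors bind were sought in the window from 250 bases before to 50 bases after each annotated start (RefSeq, GRCm38.p6). An ISRE was searched as GAAANNGAAA and a GAS as TTCNNNGAA, on both strands. Windows were matched for 26 members, and 16 of these (61.5%) held an ISRE, against 1079 of all 27025 genes with a window (3.99%). A GAS was found in 7 members (26.9%), against 2582 of all genes (9.55%). By role, an ISRE was present in 5 of 5 GTPases, 3 of 4 IFIT genes, 2 of 4 OAS genes and 2 of 5 signalling genes. No window was matched for Usp18, Zbp1, Oas2, Mx1, Mx2, Rtp4, Parp14 and Iigp1. A match is a description of the letters and not of a bound site. The windows below belong to members on which the comparisons turn. They are printed 5′ to 3′ on the strand of the gene, with motif matches in capitals. Isg15 (chr4:156200769-156201068, minus strand) shows 3 overlapping ISRE matches, whose first bases lie 78, 72 and 66 bases before the start. Ifit3 (chr19:34583279-34583578, plus strand) and Ifit3b (chr19:34607707-34608006, plus strand) have near-identical windows that each carry the ISRE matches TTTCACTTTC and TTTCAGTTTC. Gbp2 (chr3:142620413-142620712, plus strand) has 1 ISRE and Igtp (chr11:58199306-58199605, plus strand) has a GAS followed by an ISRE. Irf1 (chr11:53769764-53770063, plus strand) has the GAS TTCCCCGAA and no ISRE, and Oasl2 (chr5:114896684-114896983, plus strand) has neither motif in this window.
Isg15: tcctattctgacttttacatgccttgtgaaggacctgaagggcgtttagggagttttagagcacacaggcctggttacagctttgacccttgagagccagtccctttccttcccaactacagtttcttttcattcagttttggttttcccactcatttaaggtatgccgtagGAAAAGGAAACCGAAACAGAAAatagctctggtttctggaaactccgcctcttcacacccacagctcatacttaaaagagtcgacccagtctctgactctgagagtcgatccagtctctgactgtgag
Ifit3: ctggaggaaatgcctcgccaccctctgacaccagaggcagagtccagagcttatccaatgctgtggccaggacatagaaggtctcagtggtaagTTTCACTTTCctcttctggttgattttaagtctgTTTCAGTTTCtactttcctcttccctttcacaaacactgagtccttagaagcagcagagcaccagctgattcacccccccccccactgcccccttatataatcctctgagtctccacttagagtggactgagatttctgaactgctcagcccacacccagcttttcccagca
Ifit3b: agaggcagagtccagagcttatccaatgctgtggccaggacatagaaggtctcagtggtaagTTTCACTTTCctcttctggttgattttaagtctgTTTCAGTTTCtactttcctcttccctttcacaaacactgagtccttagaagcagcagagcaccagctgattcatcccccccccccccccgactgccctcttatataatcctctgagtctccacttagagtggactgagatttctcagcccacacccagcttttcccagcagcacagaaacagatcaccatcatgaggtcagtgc
Gbp2: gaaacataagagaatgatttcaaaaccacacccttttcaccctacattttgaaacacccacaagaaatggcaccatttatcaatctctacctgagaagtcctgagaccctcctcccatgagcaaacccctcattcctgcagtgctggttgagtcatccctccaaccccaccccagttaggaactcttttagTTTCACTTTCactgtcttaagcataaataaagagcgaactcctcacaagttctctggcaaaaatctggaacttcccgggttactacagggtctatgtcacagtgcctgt
Igtp: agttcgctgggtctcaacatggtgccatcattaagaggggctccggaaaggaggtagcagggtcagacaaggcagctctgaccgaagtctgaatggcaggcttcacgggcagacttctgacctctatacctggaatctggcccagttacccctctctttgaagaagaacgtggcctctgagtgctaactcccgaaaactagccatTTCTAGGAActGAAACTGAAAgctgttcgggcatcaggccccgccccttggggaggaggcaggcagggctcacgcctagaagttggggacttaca
Irf1: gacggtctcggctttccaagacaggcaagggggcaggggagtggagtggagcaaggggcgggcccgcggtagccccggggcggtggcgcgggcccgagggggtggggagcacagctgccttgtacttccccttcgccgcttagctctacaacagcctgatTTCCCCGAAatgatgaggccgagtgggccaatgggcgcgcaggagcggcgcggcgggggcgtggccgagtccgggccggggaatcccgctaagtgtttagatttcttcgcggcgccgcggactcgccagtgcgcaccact
Oasl2: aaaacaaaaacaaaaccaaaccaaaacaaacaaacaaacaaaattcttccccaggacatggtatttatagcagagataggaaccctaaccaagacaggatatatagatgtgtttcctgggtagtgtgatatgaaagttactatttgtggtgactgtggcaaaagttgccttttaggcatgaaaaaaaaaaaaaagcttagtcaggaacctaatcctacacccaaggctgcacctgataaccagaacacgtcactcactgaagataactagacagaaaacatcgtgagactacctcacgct

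Library totals ran from 28651435 to 42335589 counts, so that sampling error is small for all but the lowest members. The lowest count of a member in any library was 4, for Rsad2 in bone fibroblasts. Levels of single genes are given as CPM, counts scaled to a library size of 1000000 with edgeR's TMM factors. CPM summed over a list of marker genes are scaled by total counts alone, without these factors, so the 2 scales differ somewhat. The 8 mesothelial markers summed to 8280 to 12800 CPM in mesothelial libraries and to at most 710 CPM in fibroblast libraries, which follows the labels. Pdgfra, the sort marker, had group means of 6.61 to 11.7 CPM in mesothelial cells and 394 to 1190 CPM in fibroblasts, and the matrix gene Lum 29.2 to 243 and 1090 to 6240 CPM. The sum of all 6 fibroblast markers, which is mostly Dcn and collagen transcripts, overlapped between the classes (22500 to 29200 CPM in mesothelial and 19300 to 176000 CPM in fibroblast libraries). In 9 libraries, pancreatic acinar markers reached at least 1000 CPM. They were both pancreas libraries, replicates 1 and 3 of omentum fibroblasts and of mesentery fibroblasts, replicates 1 and 2 of mesentery mesothelial cells and replicate 1 of omentum mesothelial cells. Leukocyte markers (16 genes) summed to 9.04 to 224 CPM in the 34 libraries. In sorted bulk samples, fewer cells with a transcript and less of it per cell cannot be told apart.

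Members differed in level by more than 2 orders of magnitude. Per kilobase of gene model, averaged over the 12 groups, the highest were Irf1 (161 CPM per kb), Gbp2 (121), Ifit3 (68.8) and Bst2 (59.7), and the lowest were Mx1 (0.489) and Oas3 (0.397). Irf1 encodes a transcription factor that also responds to interferon gamma, and Mx1 a GTPase against influenza virus. As a summary of a library, log2 CPM was averaged over the 34 genes. It was highest in omentum mesothelial cells (6.16 ± 0.39 SD, n = 3), followed by mesentery (5.55 ± 0.28) and epididymal (5.53 ± 0.04) mesothelial cells. Among fibroblasts it was 5.38 ± 0.13 in inguinal fat, 5.29 ± 0.12 in omentum, 5.05 ± 0.38 in brown adipose tissue, 4.9 ± 0.14 in spleen (n = 2), 4.75 ± 0.3 in lymph node, 4.56 ± 0.11 in epididymal fat, 4.48 ± 0.07 in mesentery and 4.41 ± 0.03 in pancreas (n = 2). Bone fibroblasts were lowest, at 3.23 ± 0.33. Neighbours among the other groups lay close to each other's spread, whereas every bone library (2.84 to 3.44) lay below every other library. Omentum mesothelial cells were the highest of the 12 groups for 24 members, inguinal fibroblasts for 4 and lymph node fibroblasts for 3. Bone fibroblasts were the lowest for 29.

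**Figure D1:**
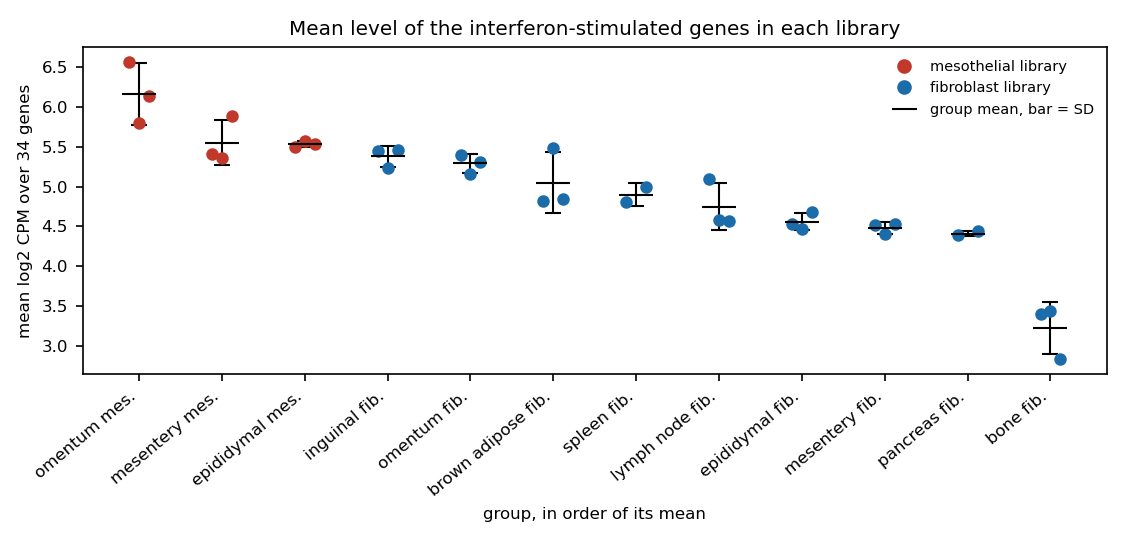
Mean log2 CPM over the 34 interferon-stimulated genes (vertical axis) for each library (points) by group, with group mean and SD. The omentum mesothelial group has the highest mean (6.16) and bone fibroblasts the lowest (3.23).

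**Figure D2:**
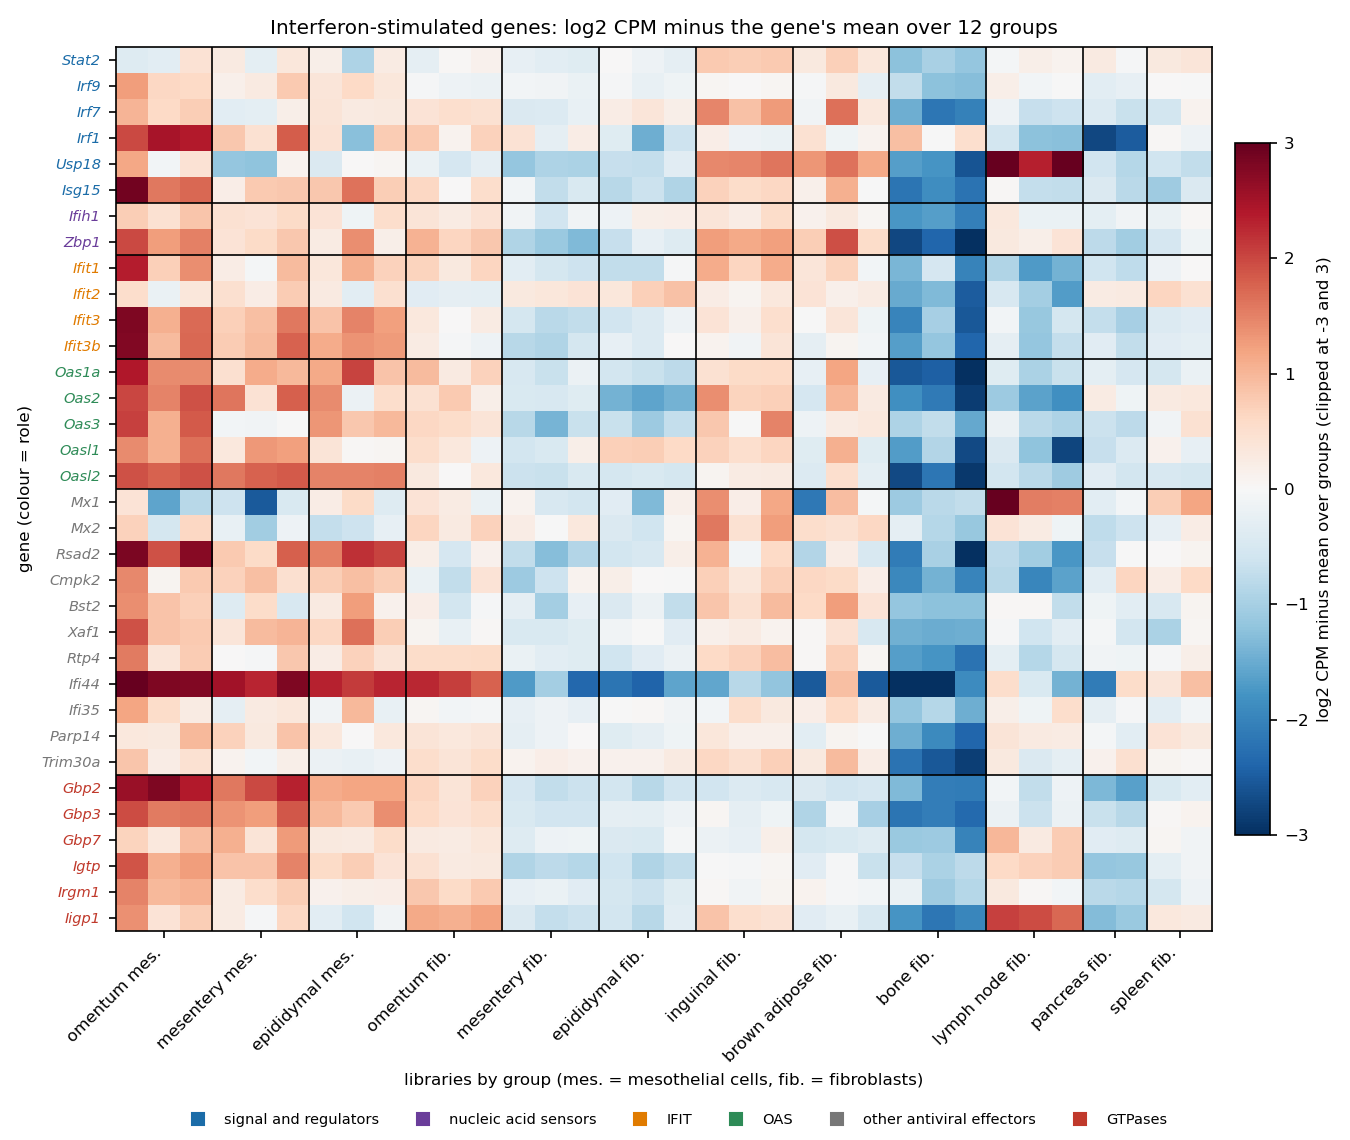
Level of each of the 34 genes (rows, ordered by role) in each of the 34 libraries (columns, ordered by group) as log2 CPM minus the mean over the 12 group means, with colours limited to 3 in either direction. Mesothelial columns are mostly above the gene mean, bone columns mostly below it, and Usp18 and Iigp1 stand high in lymph node.

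The comparison of mesothelial cells with fibroblasts of the same fat depot asks how the cell class matters where the tissue is shared. Averaged over the 3 depots, 16 of 34 members were higher in mesothelial cells and 0 lower, in edgeR's quasi-likelihood test with an adjusted p under 0.05 and a change of at least 2-fold. Of all genes tested, 12.3% were higher and 9.08% lower by this rule. Values in parentheses after a gene, here and below, are log2 fold changes ± SE unless another unit is named. At an unadjusted p under 0.05, 28 members passed on the higher side (25.5% of all genes) and 0 on the lower side (18.6%). The members' median log2 fold change was 0.91, against 0.11 for all genes, and 31 of 34 were positive. All 9 mesothelial libraries lay above all 9 fibroblast libraries of these depots for 8 members, against 5.72% of all genes.

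The guanylate-binding protein Gbp2, which coats the membranes of pathogen vacuoles, had the smallest adjusted p of the set. Its CPM in the 3 libraries of mesothelial cells was 1170, 1370 and 1010 in omentum, 586, 776 and 971 in mesentery and 425, 441 and 444 in epididymal fat. In fibroblasts it was 306, 254 and 316, 138, 117 and 125 and 132, 109 and 131, in the same order of depots. No mesothelial library fell into the range of the fibroblasts, and Gbp2 rose by 2.15 ± 0.12 SE on the log2 scale (adjusted p = 7.27e-17). Oasl2, an OAS-like protein, stood at 416, 376 and 413 CPM in omentum, 334, 377 and 394 in mesentery and 313, 310 and 318 in epididymal mesothelial cells. The fibroblast libraries held 137, 111 and 138 CPM in omentum, 70.4, 69.5 and 81 in mesentery and 77.2, 80.7 and 76.9 in epididymal fat. Here too the classes did not overlap (1.99 ± 0.11 SE, adjusted p = 2.19e-16), although the printed window of Oasl2 holds neither motif. Igtp, an immunity-related GTPase also known as Irgm3, was at 279, 159 and 180 CPM in omentum, 137, 136 and 212 in mesentery and 113, 126 and 99.4 in epididymal mesothelial cells, and at 104, 90.7 and 92, 40.6, 43.8 and 41.6 and 49.9, 40.5 and 45.4 in the fibroblasts. Its lowest mesothelial library, at 99.4 CPM, lay just below the highest fibroblast library, at 104 CPM (1.46 ± 0.11 SE, adjusted p = 3.54e-13).

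By role, 3 of 6 GTPases rose, the third being Gbp3 (1.52 ± 0.12), while Iigp1 was at 0.29 ± 0.11. Of the OAS genes 4 of 5 rose, with Oas1a at 1.52 ± 0.19, Oas2 at 1.80 ± 0.21 and Oas3 at 1.33 ± 0.2. Among the IFIT genes Ifit3 (1.74 ± 0.2), Ifit3b (1.80 ± 0.19) and Ifit1 (1.08 ± 0.2) rose and Ifit2 did not pass the test (0.08 ± 0.14 SE, adjusted p = 0.738). The call of Ifit1 was lost in 5 of the 18 fits that left out 1 library: replicate 1 of epididymal mesothelial cells, replicate 1 or 3 of mesentery mesothelial cells, replicate 2 of omentum fibroblasts or replicate 1 of omentum mesothelial cells. These 4 genes lie in the same stretch of chromosome 19, between 34550694 and 34650009 (GRCm38). Of the signalling genes, Isg15, a ubiquitin-like modifier (1.57 ± 0.18), and Irf1 (1.22 ± 0.22) rose, and Stat2 (0.16 ± 0.13) and Irf7 (0.21 ± 0.16) did not pass. Zbp1 rose (1.21 ± 0.2) and the RNA sensor Ifih1 did not reach the fold threshold (0.42 ± 0.1 SE, adjusted p = 0.00136). Of the 11 other effectors only Rsad2, also called viperin (2.29 ± 0.26), the apoptosis-linked Xaf1 (1.25 ± 0.16) and Ifi44 (3.19 ± 0.39) rose, while Mx1 (-0.28 ± 0.35 SE, adjusted p = 0.597), Mx2 (-0.34 ± 0.18) and Trim30a (-0.13 ± 0.11) had negative values that did not pass.

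Each depot alone gave 16 members higher and 0 lower. The background for higher calls was 8.1% of all genes in omentum, 10.8% in mesentery and 16.6% in epididymal fat, and for lower calls 8.79%, 7.53% and 8.16%. At an unadjusted p under 0.05 there were 23, 25 and 23 members higher (18.6%, 17.8% and 26.3% of all genes) and 0 lower (16.2%, 13.7% and 15.6%). The members' median was 1.04 in omentum (all genes -0.09), 0.96 in mesentery (all genes 0.09) and 0.88 in epididymal fat (all genes 0.33). That last shift of all genes was 0.06 when only the groups compared were fitted. The 11 members called in all 3 depots were Gbp2, Gbp3, Igtp, Ifit3, Ifit3b, Isg15, Oas1a, Oas2, Oasl2, Rsad2 and Xaf1. A further 6 were called in 2 depots, 3 in 1 depot and 14 in none. In omentum the calls of Oas1a and Igtp were lost without replicate 2 of the fibroblasts or replicate 1 of the mesothelial cells, and that of Xaf1 without the latter. In mesentery the call of Isg15 was lost without replicate 2 or 3 of either class, and in epididymal fat that of Xaf1 without replicate 2 of the mesothelial cells.

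In omentum, Ifit3b, which carries the paired ISRE matches shown above, was at 135, 37.7 and 65 CPM in mesothelial cells and at 23.5, 19.3 and 17.7 CPM in fibroblasts (1.97 ± 0.32 SE, adjusted p = 1.45e-05). The first mesothelial library stood well above the other two, and none fell into the range of the fibroblasts. The related Ifit3 was at 636, 189 and 294 and 114, 92.1 and 107 CPM (1.84 ± 0.34 SE, adjusted p = 0.00012). The transcripts of these genes share 61.8% of the 31-base words of Ifit3, so reads could be split between them and their separate values are uncertain. Leaving out the libraries with at least 1000 acinar CPM left only replicate 2 of omentum fibroblasts and of mesentery fibroblasts. Of mesentery mesothelial cells it left only replicate 3, the highest of its group for 30 members. The fibroblast libraries kept still held 953 acinar CPM in omentum and 699 in mesentery, so the limit did not remove these transcripts. Single libraries cannot show how far the calls in omentum and mesentery depend on the acinar-rich libraries. No epididymal library was left out, and 16 members were called there. Summed leukocyte markers were 64.8 to 122 CPM in omentum mesothelial cells and 121 to 162 CPM in omentum fibroblasts. They were higher in the mesothelial cells of mesentery (102 to 128, fibroblasts 10.3 to 33.2) and of epididymal fat (54.5 to 120, fibroblasts 23.4 to 53.5). The higher sums were mostly Csf1r, with means of 86.7 CPM against 3.06 in mesentery and 51.5 against 5.73 in epididymal fat. Lyz2 (4.87 against 12.3 and 16.4 against 23.4), Laptm5 and Coro1a had lower means in mesothelial cells, and Ptprc, which encodes the CD45 of the sort gate, stood at no more than 4.22 CPM in any group mean. The part of these transcripts in the differences was not tested.

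**Figure D3:**
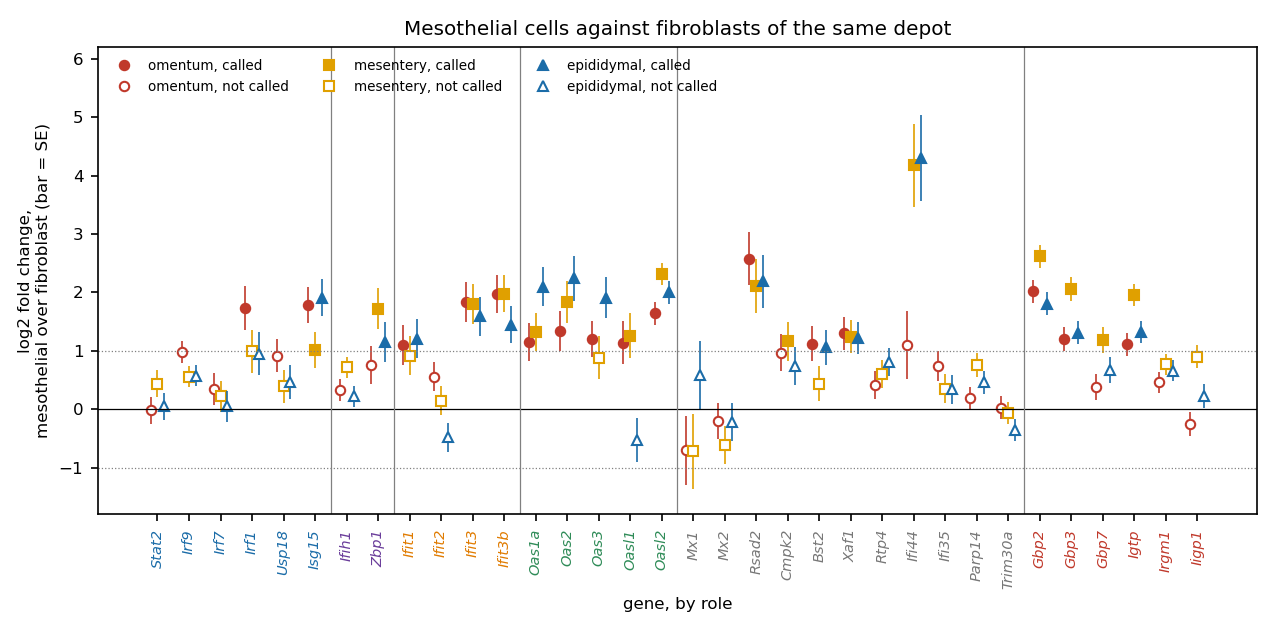
Log2 fold change of mesothelial cells against fibroblasts for each of the 34 genes in omentum, mesentery and epididymal fat, with standard errors. Filled points passed the test and the fold threshold. Each depot has 16, all above 0.

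The size of this difference varied between depots for 3 of 34 members, tested as an interaction of class and depot. That is no larger a share than the 10.9% of all genes that passed, so the count does not set the members apart. Ifi44, a cytoplasmic interferon-induced protein, was at 26.9, 23.5 and 19.2 CPM in omentum fibroblasts but at 1.67, 2.73 and 1.03 in mesentery and 1.17, 1.01 and 1.82 in epididymal fibroblasts. Mesothelial cells of all 3 depots were high, at 71.8, 39.2 and 38.4, 32, 27.2 and 39 and 27.6, 24.1 and 27.5 CPM. The log2 fold change was thus 1.10, 4.18 and 4.30 in omentum, mesentery and epididymal fat (adjusted p = 0.0243). Iigp1, a GTPase that disrupts parasite vacuoles, had values of -0.25, 0.90 and 0.23 (adjusted p = 0.0163), and its fibroblast libraries in omentum, at 247, 235 and 263 CPM, overlapped the mesothelial ones, at 290, 151 and 187. For Oasl1 the values were 1.14, 1.26 and -0.53 (adjusted p = 0.0346), from 7.33, 7.4 and 6.8 CPM in epididymal fibroblasts and 5.81, 4.53 and 4.61 in epididymal mesothelial cells. None of the 3 was stable. The call of Oasl1 was lost in 12 of 18 fits that left out 1 library (adjusted p up to 0.0853), namely any of the 6 epididymal libraries, replicate 1 or 2 of mesentery fibroblasts, replicate 2 or 3 of mesentery mesothelial cells, or replicate 2 or 3 of omentum fibroblasts. That of Ifi44 was lost without replicate 2 (0.0779) or 3 (0.0591) of omentum mesothelial cells. The call of Iigp1 was lost without replicate 3 of mesentery mesothelial cells (0.0602) or replicate 2 of omentum mesothelial cells (0.0561), and either omission left 1 member called. Iigp1 also missed edgeR's test when only the groups compared were fitted (adjusted p = 0.0501). Leaving out the acinar-rich libraries keeps 1 library each of omentum fibroblasts, mesentery fibroblasts and mesentery mesothelial cells. The range over depots was then 3.57 for Ifi44 and 2.24 for Oasl1, but single libraries cannot show whether these calls hold.

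Among mesothelial cells, omentum stood above mesentery for 6 members (2.36% of all genes were higher) and above epididymal fat for 7 (3.55%), with 0 lower in either; 2.79% and 6.83% of all genes were lower. The members' medians were 0.6 and 0.65 (all genes -0.09 and -0.24). These comparisons share the omentum libraries. Irf1, at 1820, 2560 and 2400 CPM in omentum, 815, 633 and 1630 in mesentery and 626, 194 and 782 in epididymal mesothelial cells, had no overlap between omentum and either other depot, although its difference from mesentery missed the test (1.14 ± 0.37 SE, adjusted p = 0.0639). Its difference from epididymal fat was 2.08 ± 0.38 SE, adjusted p = 0.000438. Gbp2 differed from epididymal fat by 1.44 ± 0.19 SE, adjusted p = 3.12e-06, and Iigp1 (90.9, 75 and 105 CPM in epididymal fat) by 1.21 ± 0.2 SE, adjusted p = 6.11e-05. Irgm1, an autophagy-linked regulator of the other GTPases, stood at 339, 238 and 250 CPM against 131, 136 and 138 (1.03 ± 0.18 SE, adjusted p = 0.000171). Without replicate 1 of omentum mesothelial cells, Iigp1 and Irgm1 fell under the fold threshold, at 0.9 and 0.85, and 3 members were called. The count was 4 without replicate 3 of epididymal mesothelial cells, 12 without replicate 2 of omentum mesothelial cells and 3 without the acinar-rich libraries.

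Against mesentery, Oas3, which makes long oligoadenylates, was at 9.59, 4.88 and 8.3 CPM in omentum and 2.14, 2.12 and 2.25 in mesentery mesothelial cells (1.80 ± 0.32 SE, adjusted p = 0.000297). Isg15 was at 128, 51.8 and 56.4 and 19.7, 29.6 and 30.2 CPM (1.57 ± 0.31 SE, adjusted p = 0.00119). For both genes every omentum library lay above every mesentery library. Usp18 was at 123, 52.2 and 74.7 and 24.4, 23.7 and 59.3 CPM (1.22 ± 0.29 SE, adjusted p = 0.00686), with an overlap between the groups, and its call was lost without replicate 1 (log2 fold change 1.02, adjusted p = 0.0525) or 2 (0.99) of mesentery mesothelial cells or replicate 1 of omentum mesothelial cells (0.83). The count of 6 became 2 without replicate 1 of either group and 3 without replicate 2 of mesentery. Without the acinar-rich libraries, which leaves 1 mesentery library, edgeR called 0 members, with 2 at an unadjusted p under 0.05. Between mesentery and epididymal mesothelial cells, Oas3 was the 1 member called (1.98% of all genes were higher and 2.21% lower). It stood at 5.81, 4.02 and 4.52 CPM in epididymal fat (-1.14 ± 0.32 SE, adjusted p = 0.0304), and the call was lost without replicate 1 of epididymal (adjusted p = 0.128) or any of the 3 mesentery libraries (0.0945, 0.0715 and 0.0862).

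In the 25 fibroblast libraries, all 34 members differed across the 9 tissues, a test that 44% of all genes passed. The widest ranges of group means on the log2 scale were those of Ifi44 (4.91), Usp18 (4.79), Zbp1 (4.26) and Iigp1 (3.88), and the narrowest was that of Irf9 (1.1), a subunit of the ISRE-binding complex. Each tissue was then set against the mean of the other 8. These comparisons share their libraries and are not independent of each other.

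Bone fibroblasts were lower for 28 of 34 members, where 6.65% of all genes were lower, and higher for 0, where 12.8% of all genes were higher. The median was -1.63 (all genes 0.03), and every member but Irf1 was negative. At an adjusted p under 0.05 alone 33 members were lower (11.7% of all genes) and Irf1 was higher (18.4%). For 19 members all 3 bone libraries lay below all 22 other fibroblast libraries, against 3.58% of all genes. Trim30a, an E3 ligase that restrains inflammatory signalling, was at 8.44, 6.69 and 5.49 CPM in bone and at 28.8 CPM or more in each other fibroblast library (-2.78 ± 0.19 SE, adjusted p = 4.8e-14). Oasl2 was at 16.9, 24.5 and 14.9 CPM (-2.26 ± 0.17 SE, adjusted p = 9.79e-13), below its lowest value elsewhere of 53.1 CPM. Iigp1 was at 33, 25 and 29 CPM, against a lowest value elsewhere of 45.5 CPM (-2.12 ± 0.18 SE, adjusted p = 1.13e-11). The decrease covered all roles, with calls for 4 of 6 signalling genes, 2 of 2 sensors, 4 of 4 IFIT genes, 4 of 5 OAS genes, 10 of 11 other effectors and 4 of 6 GTPases. Zbp1 was at 1.85, 2.38 and 0.316 CPM (-3.15 ± 0.36), Oas1a had a log2 fold change of -2.67 ± 0.32, Usp18 of -2.27 ± 0.26 and Ifih1, the cytosolic double-stranded RNA sensor, of -1.87 ± 0.16.

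The exceptions in bone were Irf9 (-0.99 ± 0.15), Oas3 (-0.89 ± 0.32), Mx2 (-0.92 ± 0.27), Igtp and Irgm1 (-0.52 and -0.52) and Irf1. Irf1 stood at 865, 458 and 657 CPM in bone, among the higher fibroblast values (0.95 ± 0.26 SE, adjusted p = 0.00482, under the fold threshold). The call of Mx1 (adjusted p = 0.0452) was lost in 12 of 25 fits that left out 1 library, each bone library among them, that of Ifit1 in 5 (replicates 1 or 3 of bone, 2 of brown adipose tissue, 3 of epididymal fat or 1 of lymph node) and that of Ifi44 without replicate 1 or 2 of bone. The count without single libraries ran from 26 to 30, and without the acinar-rich libraries 28 were called, 27 of them in common. Bone libraries also had the highest summed fibroblast markers of the fibroblast groups, at 116000 to 176000 CPM. That sum rested on the collagen genes Col1a1 (mean 59300 CPM) and Col1a2 (92200), while Pdgfra (394 CPM, other tissues 690 to 1190) and Dcn (10300) were the lowest of the fibroblast groups and Col3a1 (7100) lay within their range. Leukocyte markers summed to 75.7 to 168 CPM, higher than in most tissues, mainly through Lyz2 (54.9) and S100a8 (54). The part of these values in the lower levels was not tested.

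**Figure D4:**
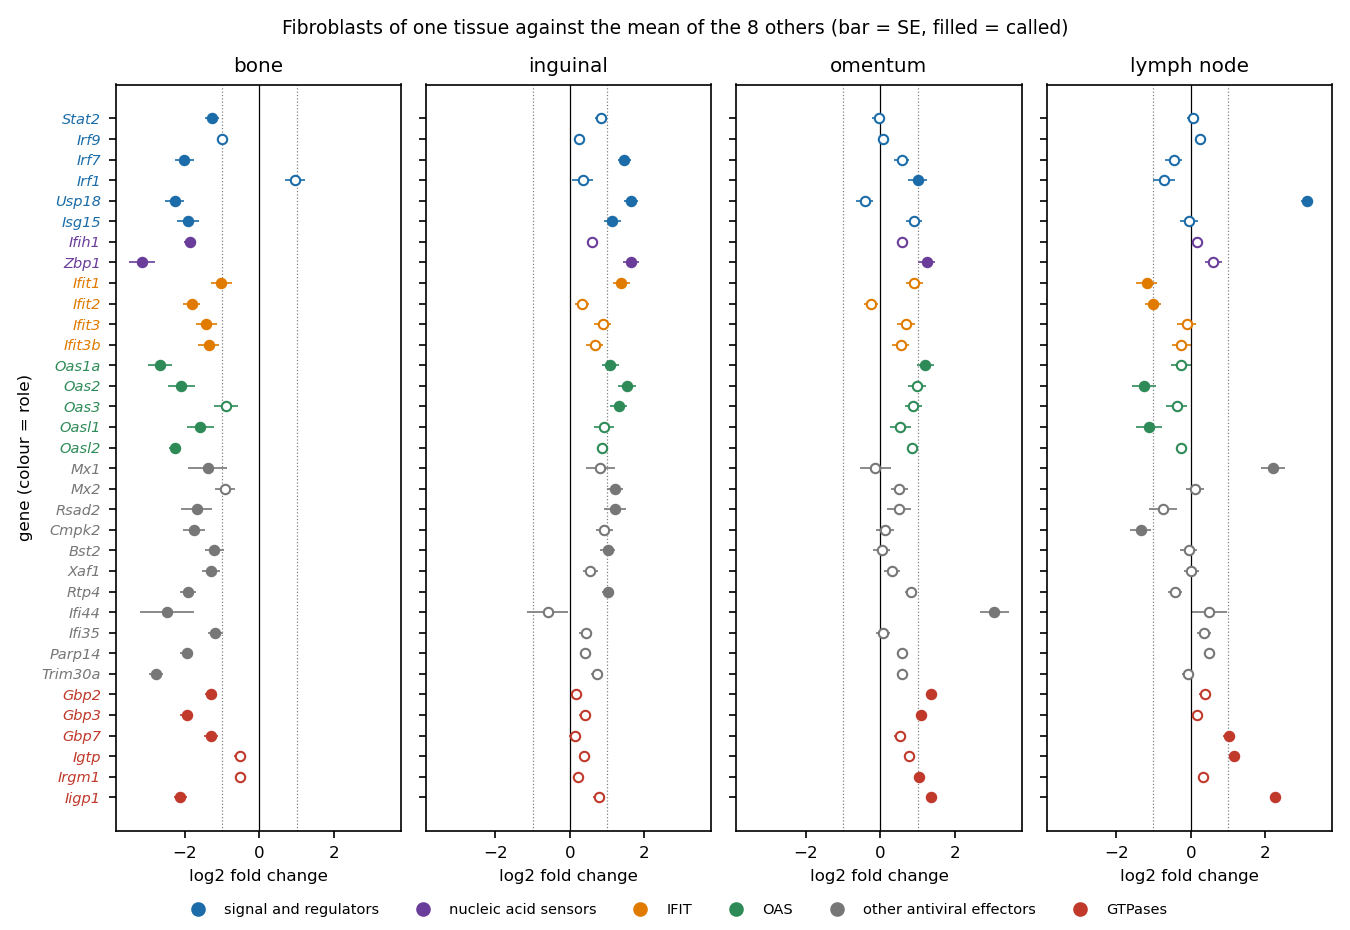
Log2 fold change of bone, inguinal, omentum and lymph node fibroblasts against the mean of the other 8 fibroblast tissues for each of the 34 genes, with standard errors and filled points for members that passed. Bone has 28 filled points left of 0, inguinal fat 12 and omentum 8 right of 0, and lymph node 5 on each side.

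In inguinal fibroblasts 12 members were higher, where 3.35% of all genes were, and 0 lower (2.96% of all genes). The median was 0.83 (all genes 0.06), and only Ifi44 was negative. Usp18 stood at 148, 152 and 168 CPM (1.64 ± 0.19 SE, adjusted p = 8.37e-08). Irf7, the factor that amplifies type I interferon transcription, stood at 156, 105 and 138 CPM (1.46 ± 0.18 SE, adjusted p = 4.21e-07). Zbp1 was at 30.1, 27.7 and 29.8 CPM (1.64 ± 0.22 SE, adjusted p = 2.08e-06). None of these calls was lost when a library was left out. The others were Oas2 (1.52), Ifit1 (1.38), Oas3 (1.31), Mx2 (1.21), Rsad2 (1.21), Isg15 (1.14), Oas1a (1.08), Rtp4 (1.02) and Bst2 (1.01), and 0 of 6 GTPases. The calls of Mx2 and Rsad2 were lost without replicate 1 of inguinal fat, those of Oas3 and Rtp4 without replicate 3, that of Rtp4 also without replicate 2 of omentum, and that of Bst2, at the fold threshold, in 8 of 25 fits that left out 1 library. Leukocyte markers in inguinal fibroblasts were low, at 9.04 to 21.9 CPM.

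Brown adipose fibroblasts had 4 members higher (3.66% of all genes) and 0 lower (2.75%), with a median of 0.49 (all genes 0.04). Usp18 was at 139, 170 and 120 CPM (1.49 ± 0.19 SE, adjusted p = 6.41e-07) and Zbp1 at 21.2, 48.5 and 18.5 CPM (1.65 ± 0.22 SE, adjusted p = 1.93e-06). Irf7 was at 53, 180 and 70.2 CPM (1.01 ± 0.19 SE, adjusted p = 0.000276). The second library was the highest for Irf7 by far, and without it the log2 fold change was 0.3 (adjusted p = 0.375). The call of the virus-tethering protein Bst2 (1.04) was lost without that library too. The Irf7 call also fell just under the fold threshold without replicate 2 of bone, inguinal fat (0.99), omentum or pancreas, or replicate 1 of spleen (0.97). Without replicate 1 of brown adipose tissue, 7 members were called.

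Set against each other, the visceral depots (omentum, mesentery and epididymal fat) were lower than the subcutaneous ones (inguinal and brown) for 4 members, where 3.94% of all genes were lower, and higher for 0, where 4.29% were higher. The median was -0.4 (all genes -0.1). Usp18 was at 48, 38.6 and 45.2 CPM in omentum, 24.6, 29 and 28.5 in mesentery and 34.1, 33.4 and 43.2 in epididymal fat, and no library of these reached the 120 CPM of the lowest subcutaneous one (-2.08 ± 0.18 SE, adjusted p = 1.86e-10). Zbp1 differed by -1.44 ± 0.21 SE, adjusted p = 4.87e-06, with 26.3, 19.9 and 22.4 CPM in omentum inside the subcutaneous range and 6.69, 5.79 and 4.98 in mesentery and 7.79, 10.6 and 9.71 in epididymal fat below it. Bst2 stood at 86.1, 66.8 and 92.1 CPM in inguinal and 72.7, 114 and 63.6 in brown adipose fibroblasts, and at 55.4, 32.9 and 46.6, 39.7, 23.5 and 40.3 and 35.6, 42.8 and 28.7 in omentum, mesentery and epididymal fat (-1.11 ± 0.19 SE, adjusted p = 5.45e-05). All visceral libraries were below all subcutaneous ones for Bst2, but the fold threshold was missed without replicate 2 of brown adipose tissue or of omentum (-0.97 in each). Oas2 was also lower (-1.15 ± 0.23), a call that was lost without replicate 2 of brown adipose tissue.

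Omentum fibroblasts were higher for 8 members (7.64% of all genes) and lower for 0 (2.38%), with a median of 0.59 (all genes 0). The GTPases made up 4 of the 8. Iigp1, at 247, 235 and 263 CPM, exceeded every fibroblast library outside the lymph node (1.37 ± 0.13 SE, adjusted p = 7.5e-10). Gbp2 stood at 306, 254 and 316 CPM, above the highest value in the other tissues of 185 CPM (1.36 ± 0.13 SE, adjusted p = 5.81e-10). Irgm1, at 212, 179 and 208 CPM, also exceeded all other fibroblast libraries, the highest of which held 148 CPM (1.03 ± 0.12 SE, adjusted p = 8.92e-08), although its value was 0.99 without replicate 1 and 1 without replicate 3 of omentum, at the fold threshold. Gbp3 was the fourth (1.10 ± 0.14). The others were Ifi44 (3.05 ± 0.39), Oas1a (1.21 ± 0.22), Zbp1 (1.24 ± 0.23) and Irf1 (1.0 ± 0.26), the last of which lost its call in 14 of 25 fits that left out 1 library. Without the acinar-rich libraries, which leaves 1 omentum library and 8 tissues, 4 members were called, 3 of them among the 8. Omentum fibroblasts had leukocyte markers of 121 to 162 CPM and mesothelial markers of 477 to 710 CPM, the highest of the fibroblast groups for the latter; their part was not tested.

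Lymph node fibroblasts had members on both sides, 5 higher (9.32% of all genes) and 5 lower (7.13%), with a median of -0.01 (all genes -0.04). Iigp1, at 472, 440 and 372 CPM, exceeded all other 31 libraries (2.25 ± 0.12 SE, adjusted p = 3.03e-16). Usp18, at 450, 276 and 447 CPM, did so too, the next library being 1 of brown adipose tissue at 170 CPM (3.12 ± 0.17 SE, adjusted p = 5.23e-16). Igtp was at 115, 121 and 127 CPM, above the 104 CPM of the highest other fibroblast library (1.15 ± 0.13 SE, adjusted p = 7.43e-09). Mx1 was at 11.6, 4.04 and 3.98 CPM (2.21 ± 0.32 SE, adjusted p = 1.81e-06) and Gbp7 had 1.02 ± 0.15. On the other side were Ifit2, at 28.4, 19.5 and 12.4 CPM (-1.02 ± 0.21 SE, adjusted p = 0.000215), Cmpk2, a mitochondrial nucleotide kinase next to Rsad2 on chromosome 12, at 5.38, 2.43 and 3.13 CPM (-1.34 ± 0.28 SE, adjusted p = 0.000393) and Ifit1 at 26.2, 15.1 and 18.1 CPM (-1.18 ± 0.28 SE, adjusted p = 0.00177). Oas2 (-1.25 ± 0.32) and Oasl1 (-1.12 ± 0.34) were lower too. The fitted value was positive for 0 of 4 IFIT and 0 of 5 OAS genes and for 6 of 6 GTPases, of which 3 passed. The call of Ifit2 was lost without replicate 2 (-0.99) or 3 (-0.77) of lymph node or replicate 2 of bone (-0.99), that of Oasl1 without replicate 2 or 3 of lymph node, and that of Gbp7 without replicate 1 or 3 of lymph node, replicate 3 of bone or replicate 2 of omentum.

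Few members set the remaining tissues apart. Mesentery fibroblasts were lower for Usp18 alone (-1.19 ± 0.24 SE, adjusted p = 0.00108), where 1.31% of all genes were lower and 2.19% higher. Without the acinar-rich libraries, Usp18 was at -1.2, but the 1 library of mesentery fibroblasts then left cannot show whether the call holds. A second member was called without replicate 3 of bone or replicate 1 or 3 of brown adipose tissue. Epididymal fibroblasts were lower for Oas2 alone, at 2.44, 2.2 and 2.47 CPM (-1.24 ± 0.32 SE, adjusted p = 0.00997), where 1.93% of all genes were lower and 2.5% higher. That call was lost without replicate 1 (0.0561), 2 (0.0859) or 3 (0.0523) of the group, while leaving out 1 of 10 other fibroblast libraries added a second call. Ifit2 had its highest group mean there, at 50.4, 64.7 and 73.2 CPM, but did not reach the fold threshold (0.83 ± 0.17 SE, adjusted p = 0.00138). Pancreas fibroblasts were lower for 2 members, where 2.31% of all genes were lower and 8.65% higher. Irf1 was at 70.2 and 82.2 CPM, below every other library, the lowest of which held 167 CPM (-2.55 ± 0.42 SE, adjusted p = 6.5e-05). Iigp1 was at 45.5 and 51.9 CPM (-1.27 ± 0.2 SE, adjusted p = 1.8e-05), above the bone libraries and below all others. Beside this, 7 immediate-early genes, a list chosen after values had been seen, summed to 488 to 796 CPM in pancreas and to at least 2590 CPM in every other library, and both pancreas libraries were acinar-rich; neither was tested as a part of the Irf1 value. In spleen fibroblasts edgeR called 0 members, with 8 at an unadjusted p under 0.05, of which 7 were higher (11% of all genes) and 1 lower (4.56%) (DESeq2 also 0 and 8; edgeR 1 without replicate 2 of brown adipose tissue or of pancreas), where 3.47% of all genes were higher and 0.416% lower. The smallest adjusted p values there were those of Gbp3, at 83.9 and 88.8 CPM (0.60 ± 0.17 SE, adjusted p = 0.0313), and Ifit2, at 62.1 and 54.9 CPM (0.71 ± 0.21 SE, adjusted p = 0.0399).

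**Figure D5:**
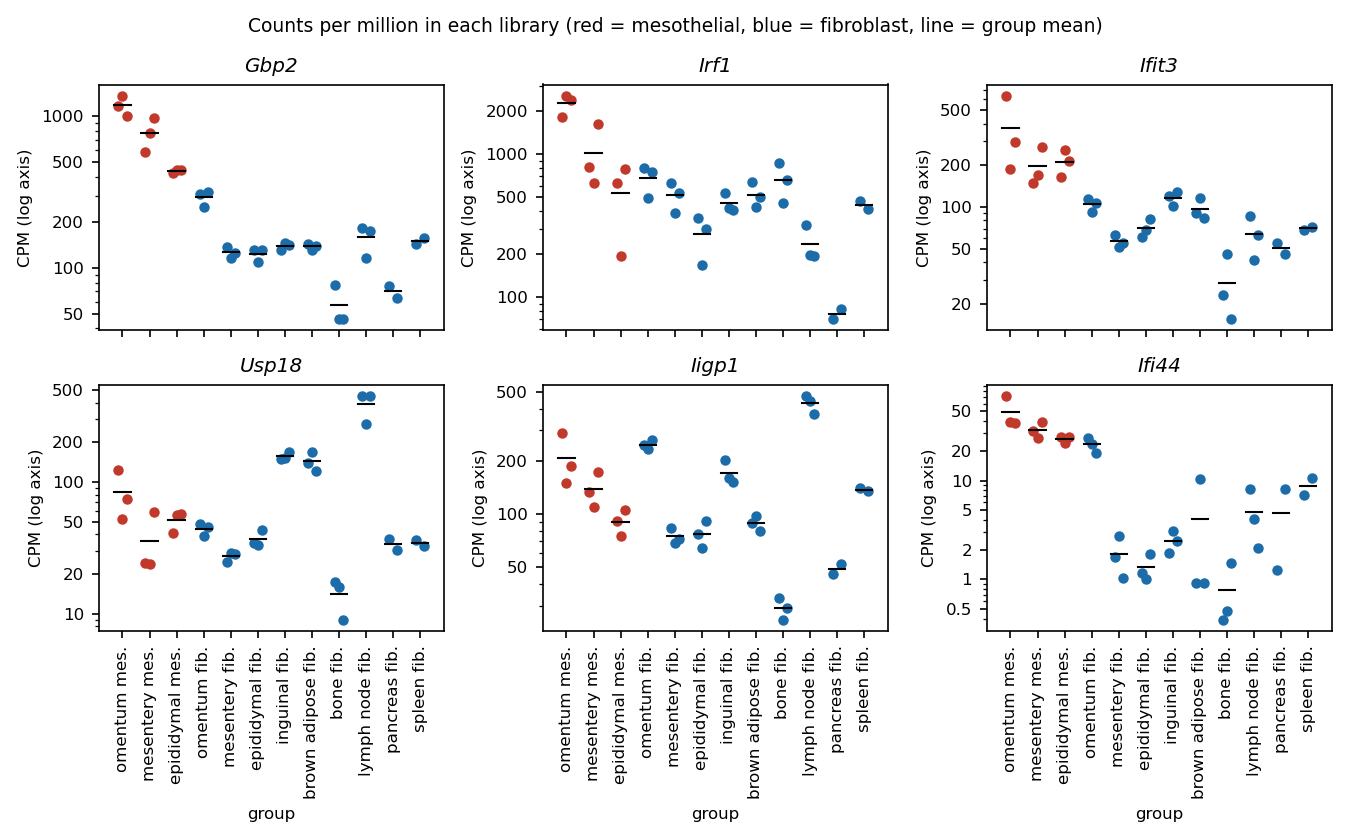
CPM (log axis) of Gbp2, Irf1, Ifit3, Usp18, Iigp1 and Ifi44 in each of the 34 libraries by group. Gbp2 and Ifit3 are highest in mesothelial cells, Usp18 and Iigp1 in lymph node, Irf1 is lowest in pancreas, and Ifi44 is at 19.2 CPM or more in mesothelial cells and omentum fibroblasts alone.

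The genes upstream of the set were read from lists chosen for their function. Of 16 interferon ligand genes, 2 had no count in any library and 1 passed the filter; Ifnb1 had 16 counts in 7 libraries and Ifng 32 counts in 10. Interferon transcripts were near the limit of detection in these sorted cells, and other cells of the tissues were not measured. Of 15 receptor and kinase genes, 2 were higher (12.3% of all genes) and 3 lower (9.08%) in mesothelial cells over the 3 depots, so that the counts themselves were close to those of all genes. Higher were Ifnar2, a chain of the type I receptor (1.52 ± 0.17 SE, adjusted p = 6.3e-09), and Ifnlr1 of the interferon lambda receptor (1.95 ± 0.28). Lower were Jak1 (-1.57 ± 0.08 SE, adjusted p = 5.77e-17), Ifngr1 of the interferon gamma receptor (-1.17 ± 0.08 SE, adjusted p = 8.69e-14) and the feedback inhibitor Socs1 (-1.30 ± 0.35). Socs1 was close to the floor, with 532 counts over the 34 libraries and no group mean above 0.817 CPM. Mean Ifnar2 was 85.1 to 147 CPM in the mesothelial groups and 27.8 to 62.5 CPM in the fibroblast groups, with no overlap of means. In lymph node fibroblasts the kinase gene Jak2 (1.44) and Ifnlr1 (2.75) were higher. Among the 16 tested genes of nucleic acid sensing, Irf5 was higher in mesothelial cells (3.61 ± 0.21), and lymph node fibroblasts were higher for Irf8 (4.35 ± 0.26) and Tmem173, the adaptor STING (1.94 ± 0.13). Bone was lower for 6 of the 16 (6.65% of all genes), among them Ddx58, the RNA sensor RIG-I (-1.19), and Tmem173 (-1.41).

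A further list of 55 interferon-induced genes outside the set was read in the same way. In bone 39 were lower (6.65% of all genes) and 1 higher (12.8%), among the lower ones Ifi204 (-2.89), Sp100 (-3.0) and Uba7, the E1 enzyme for ISG15 (-2.47), and the higher one Tgtp1 (1.49). Over the 3 depots 16 were higher in mesothelial cells (12.3% of all genes), with Ifi47 at 1.78 ± 0.12, Herc6, the ISG15 ligase, at 1.65 ± 0.11 and Gbp6 at 1.80. Against these, 7 were lower (9.08% of all genes), with Ifi207 at -4.96 ± 0.14, the surface antigen Ly6a (Sca-1) at -4.35 ± 0.18 and Slfn5 at -3.38 ± 0.16. In omentum fibroblasts 21 were higher (7.64% of all genes) and 0 lower (2.38%), led by the GTPases Gbp8 (3.34) and Ifi47 (1.75). In lymph node 16 were higher (9.32% of all genes) and 8 lower (7.13%). The higher ones included Ifitm1 (5.69 ± 0.18), Tgtp2 (4.14), Gbp8 (4.01) and the chemokine gene Cxcl9 (3.58), and the lower ones Ifi204 (-2.54), Ifi205 (-2.77) and Ly6a (-2.23). In inguinal fibroblasts 11 were higher (3.35% of all genes), including Ifi27l2a (2.03), Ifi205 (1.91) and Ifi204 (1.17), and 1 was lower (2.96%), Ifitm1 (-4.43). In pancreas 3 were higher and 5 lower, where 8.65% of all genes were higher and 2.31% lower, the latter including the chemokine genes Cxcl10 (-4.26) and Cxcl9 (-3.38).

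In several groups, though not in all, the members moved together between libraries. Omentum mesothelial replicate 1 was the highest of its group for 27 of 34 members, with a median of 0.4 above the group mean on the log2 scale (all genes 0.06), and replicate 2 was the lowest for 25. Mesentery mesothelial replicate 3, the 1 library of that group under 1000 acinar CPM, was the highest for 30 (median 0.3, all genes 0). Lymph node replicate 1 was the highest for 28 (median 0.31, all genes -0.03) and brown adipose replicate 2 for 26 (0.31, all genes -0.02). Bone replicate 3 was the lowest for 24 (-0.3, all genes 0). In omentum fibroblasts replicate 1 was the highest for 21 and replicate 2 the lowest for 24. By contrast, epididymal mesothelial replicate 2 was the highest for 15 and the lowest for 15, and mesentery fibroblast replicates 1, 2 and 3 were the highest for 13, 6 and 15. Members are therefore not independent readings of a condition. Some values also rest on shared sequence. Oas1a shares 68.8% of its 31-base words with another gene, most with Oas1g, and Ifit3b 55.2%, most with Ifit3. For 11 members (Gbp2, Gbp7, Ifi35, Igtp, Irf1, Irf7, Irf9, Oasl1, Parp14, Rtp4 and Usp18) an exon overlaps one of another annotated gene, and whether strand was used in counting is not stated, so reads of the overlapping part are of uncertain origin.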

How the data were processed

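RNA from sorted mouse cells was sequenced in 34 polyA libraries. The deposited files give whole-number counts per gene; per the file headers each is the number of uniquely aligning reads of a gene model, and the submitters' processing notes name Salmon and GRCm38 without versions. The annotation release and strand setting are not given in the sources used here. The counts (28651435 to 42335589 per library) were filtered with filterByExpr (minimum count 10), scaled by TMM and fitted in 1 model of 12 groups with edgeR 4.0.16 (limma 3.58.1, R 4.3.3), using the robust quasi-likelihood F test. Errors are standard errors of the log2 fold change. Calls required a Benjamini-Hochberg adjusted p (over all 25705 genes) under 0.05 and a change of at least 2-fold (for tests over several groups, a range of at least 1 on the log2 scale). CPM of single genes use the TMM-scaled library size, and log2 CPM a prior count of 2. Summed CPM of the marker lists, the acinar limit and the immediate-early sums use total counts without TMM factors. The scripts were tested on simulated data with 200 changed genes. Replicates were compared by chi-square over genes, and none of 32 pairs differed by as little as sampling noise. Alternatives were DESeq2 (1.42.0), its size factors, no filter, a replicate block, fits of the compared groups alone, no fold threshold, each library left out in turn, and leaving out libraries of at least 1000 acinar CPM.

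Values in each library are given, per comparison, for up to 3 called members per direction with the smallest adjusted p (where none was called, up to 2), for the members with the highest and lowest levels and for Ifit3 and Ifit3b; from the other lists, up to 3 called genes per direction, and any receptor, ligand or IRF gene; 1 gene of the receptor list is not reported here. Other members, and a few genes of the other lists, are named outside that rule and were chosen after their values were seen. The members and lists were chosen with earlier results of these data known. Motifs and windows come from RefSeq GRCm38.p6 and gene positions from the GENCODE M21 annotation.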

Additional observations from a re-analysis of the deposited data

Results flagged for a closer look

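The mesothelial-fibroblast difference itself differed between depots, by a test of the interaction, for 3 of 34 members, where 10.9% of all genes passed. The share of members was thus no larger than that of all genes. Each of these calls was lost in some of the fits that left out a library. For Ifi44 the range over depots was 3.2 on the log2 scale (adjusted p = 0.0243), from 1.10 in omentum to 4.30 in epididymal fat. For Oasl1 it was 1.79 (adjusted p = 0.0346), from -0.53 in epididymal fat to 1.26 in mesentery. For Iigp1 it was 1.14 (adjusted p = 0.0163), from -0.25 in omentum to 0.90 in mesentery. No group had 4 or more libraries, so single libraries were not examined for extreme values.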

How the results depend on the processing

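None of the 52 named values reversed in sign. The 19 counts were judged only by whether they stayed within 1.5 times of the main count. With an adjusted p under 0.05 alone, where the share of all genes called also rose, the counts of called members were 28 for mesothelial cells against fibroblasts (37.1% of all genes), 2 for mesentery against epididymal mesothelial cells (5.63%), 14 for visceral against subcutaneous fat (15.1%), and, for a tissue against the other 8, 21 in omentum (16.9%), 4 in mesentery (5.67%), 4 in epididymal fat (7.91%), 20 in inguinal fat (10%), 12 in brown adipose tissue (10.2%), 7 in pancreas (15.3%) and 2 in spleen (4.94%). Without the filter, mesentery fibroblasts had 2, epididymal fibroblasts 3 and spleen 1. Epididymal fibroblasts had 2 with DESeq2's size factors, 2 with only the groups compared and 3 with DESeq2, and mesentery against epididymal mesothelial cells had 0 with only the groups compared. When the acinar-rich libraries (1000 CPM or more) were left out, omentum fibroblasts, mesentery fibroblasts and mesentery mesothelial cells kept 1 library each. Counts that rest on these groups are therefore not listed here. The count for omentum against epididymal mesothelial cells was 3. Over the 8 tissues left, a fit chosen after seeing the data, omentum and mesentery fibroblasts again kept 1 library each.

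Leaving out 1 library at a time gave 15 to 17 members for mesothelial cells against fibroblasts, 11 to 19 in omentum, 13 to 17 in mesentery and 14 to 16 in epididymal fat, 1 to 4 for the difference between depots, 2 to 8 for omentum against mesentery, 3 to 12 for omentum against epididymal and 0 to 1 for mesentery against epididymal mesothelial cells. It gave 34 to 34 across tissues, 3 to 6 for visceral against subcutaneous fat, and by tissue 6 to 11 in omentum, 1 to 2 in mesentery, 0 to 2 in epididymal fat, 9 to 13 in inguinal fat, 3 to 7 in brown adipose tissue, 26 to 30 in bone, 7 to 10 in lymph node, 2 to 3 in pancreas and 0 to 1 in spleen. The cause of these changes was not tested beyond the smaller number of libraries or genes in each fit.

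No label says that replicate numbers pair the libraries. Across different groups, the 177 pairs with the same number had a median correlation of -0.003 (-0.276 to 0.374), and 25 lay over 0.1. The 352 pairs with different numbers had a median of -0.002 (-0.363 to 0.439), and 42 lay over 0.1. Of 34 libraries, 16 correlated best with their own number. These pairs pool all groups, so a pairing of both classes within a depot was not tested. With the replicate block, epididymal fibroblasts had 2 called members, mesothelial cells against fibroblasts kept a count of 16 and the other counts stayed within 1.5 times. The calls of Gbp7 in lymph node, Irf1 in omentum fibroblasts and Mx1 in bone were not made in that fit. Depth limits the lowest members, Rsad2, Mx1 and Zbp1, which had under 10 counts in some libraries.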
